A study of Homo sapiens with 3 samples.

Results

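The 10 genes SOX1, SOX2, SOX3, SOX9, PAX6, NES, VIM, MSI1, FABP7 and PROM1 are widely used to identify neural stem cells. They were chosen by name from 20033 protein-coding genes, and every CHD8 and TRRAP peak from 20 kb before each gene to 20 kb past its end was collected. Occupancy was measured by ChIP-seq, which sequences the DNA recovered with an antibody, in unmodified (WT) neural stem cells (hNSCs). They were made from the established embryonic stem cell line H9. The cells were kept in medium with the growth factors EGF and FGF and were crosslinked with 2 mM disuccinimidyl glutarate followed by 1% formaldehyde. All libraries came from this 1 line and genotype. There was 1 library for CHD8 (Bethyl antibody) and 1 for TRRAP (Invitrogen antibody), so no value has a replicate error and no p-value was computed. An IgG library of the same cells was not analysed here.

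CHD8 is a chromatin remodeler that uses ATP to move nucleosomes, and it is one of the genes most often mutated in autism. TRRAP is a large scaffold protein of histone acetyltransferase complexes that is brought to DNA by transcription factors such as MYC and E2F. In neural stem cells, SOX1, SOX2 and SOX3 form the SOXB1 group of transcription factors that hold cells in the progenitor state, SOX9 and PAX6 specify progenitor and radial glial fate, and the remaining genes encode structural, RNA-binding, lipid-binding or membrane proteins by which such cells are recognised. Developmental genes of this kind are commonly controlled by enhancers in introns and flanking sequence as well as by their promoters. The peak lists measure where the proteins were bound and not whether a gene was expressed, so the labelled cell type could not be checked against expression of its markers.

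The windows of the 10 genes held 46 CHD8 peaks and 28 TRRAP peaks. The strongest binding was not at a promoter: in both lists the highest fold of the whole set lay in intron 2 of NES (CHD8 fold 23.0, TRRAP fold 23.5). MSI1 also had its strongest peaks in introns. The fold is the authors' linear ratio of signal at the peak over the background of the peak caller, and it ranks peaks within a list only. A promoter peak (one that overlaps the 1 kb on either side of the canonical start site) was present for CHD8 at 9 of 10 genes and for TRRAP at 6 of 10. SOX3 had neither protein in its window, SOX9 and FABP7 had CHD8 alone, and MSI1 had both proteins but no TRRAP at its promoter.

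The reference sequence around 7 CHD8 summits (the point of highest signal in a peak) is shown for the binding sites that the results turn on. For 6 of the 7 genes where peaks of the lists overlapped, the site is the overlapping pair with the highest TRRAP fold, with up to 100 bp on each side of the CHD8 summit and without annotated UTR sequence. The PROM1 stretch is the longest one left beside its summit, which itself lies in sequence that was left out. The VIM stretch lies in intron 1 of the canonical transcript and also within the promoter window, upstream of another annotated VIM start site. The FABP7 site, its strongest CHD8 promoter peak, was added after its values were seen because TRRAP was absent there. Sequences are from GRCh38, on the strand of the gene, 5′ to 3′. Capitals mark exact matches to the searched words described with the composition of the peaks.
SOX1 promoter, chr13:112066920-112067120, plus strand: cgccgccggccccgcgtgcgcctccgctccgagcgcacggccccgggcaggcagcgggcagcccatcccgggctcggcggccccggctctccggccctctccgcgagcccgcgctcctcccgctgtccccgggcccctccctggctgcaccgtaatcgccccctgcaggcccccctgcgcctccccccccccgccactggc
SOX2 promoter, chr3:181711623-181711823, plus strand: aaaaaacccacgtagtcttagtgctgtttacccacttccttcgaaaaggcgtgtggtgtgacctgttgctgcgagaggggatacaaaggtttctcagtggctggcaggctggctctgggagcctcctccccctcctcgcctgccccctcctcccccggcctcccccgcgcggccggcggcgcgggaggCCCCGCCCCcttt
NES intron, chr1:156673882-156674082, minus strand: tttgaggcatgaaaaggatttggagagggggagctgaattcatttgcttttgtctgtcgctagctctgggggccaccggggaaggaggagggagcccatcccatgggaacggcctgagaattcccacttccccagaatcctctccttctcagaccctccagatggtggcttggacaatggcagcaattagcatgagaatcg
VIM intron, chr10:17228701-17228868, plus strand: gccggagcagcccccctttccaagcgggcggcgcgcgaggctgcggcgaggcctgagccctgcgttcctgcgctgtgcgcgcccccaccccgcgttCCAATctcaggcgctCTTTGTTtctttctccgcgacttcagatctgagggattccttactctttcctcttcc
MSI1 intron, chr12:120358803-120359003, minus strand: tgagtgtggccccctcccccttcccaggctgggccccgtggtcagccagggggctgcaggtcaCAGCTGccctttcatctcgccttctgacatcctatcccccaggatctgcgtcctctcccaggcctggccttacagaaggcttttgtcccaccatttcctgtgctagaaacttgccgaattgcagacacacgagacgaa
FABP7 promoter, chr6:122779395-122779595, plus strand: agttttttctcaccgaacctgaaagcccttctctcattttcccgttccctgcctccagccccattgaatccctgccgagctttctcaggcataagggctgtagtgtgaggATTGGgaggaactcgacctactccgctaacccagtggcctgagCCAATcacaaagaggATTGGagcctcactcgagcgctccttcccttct
PROM1 intron, chr4:16082609-16082668, minus strand: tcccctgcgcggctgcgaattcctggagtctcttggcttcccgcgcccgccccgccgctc

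**Figure D1:**
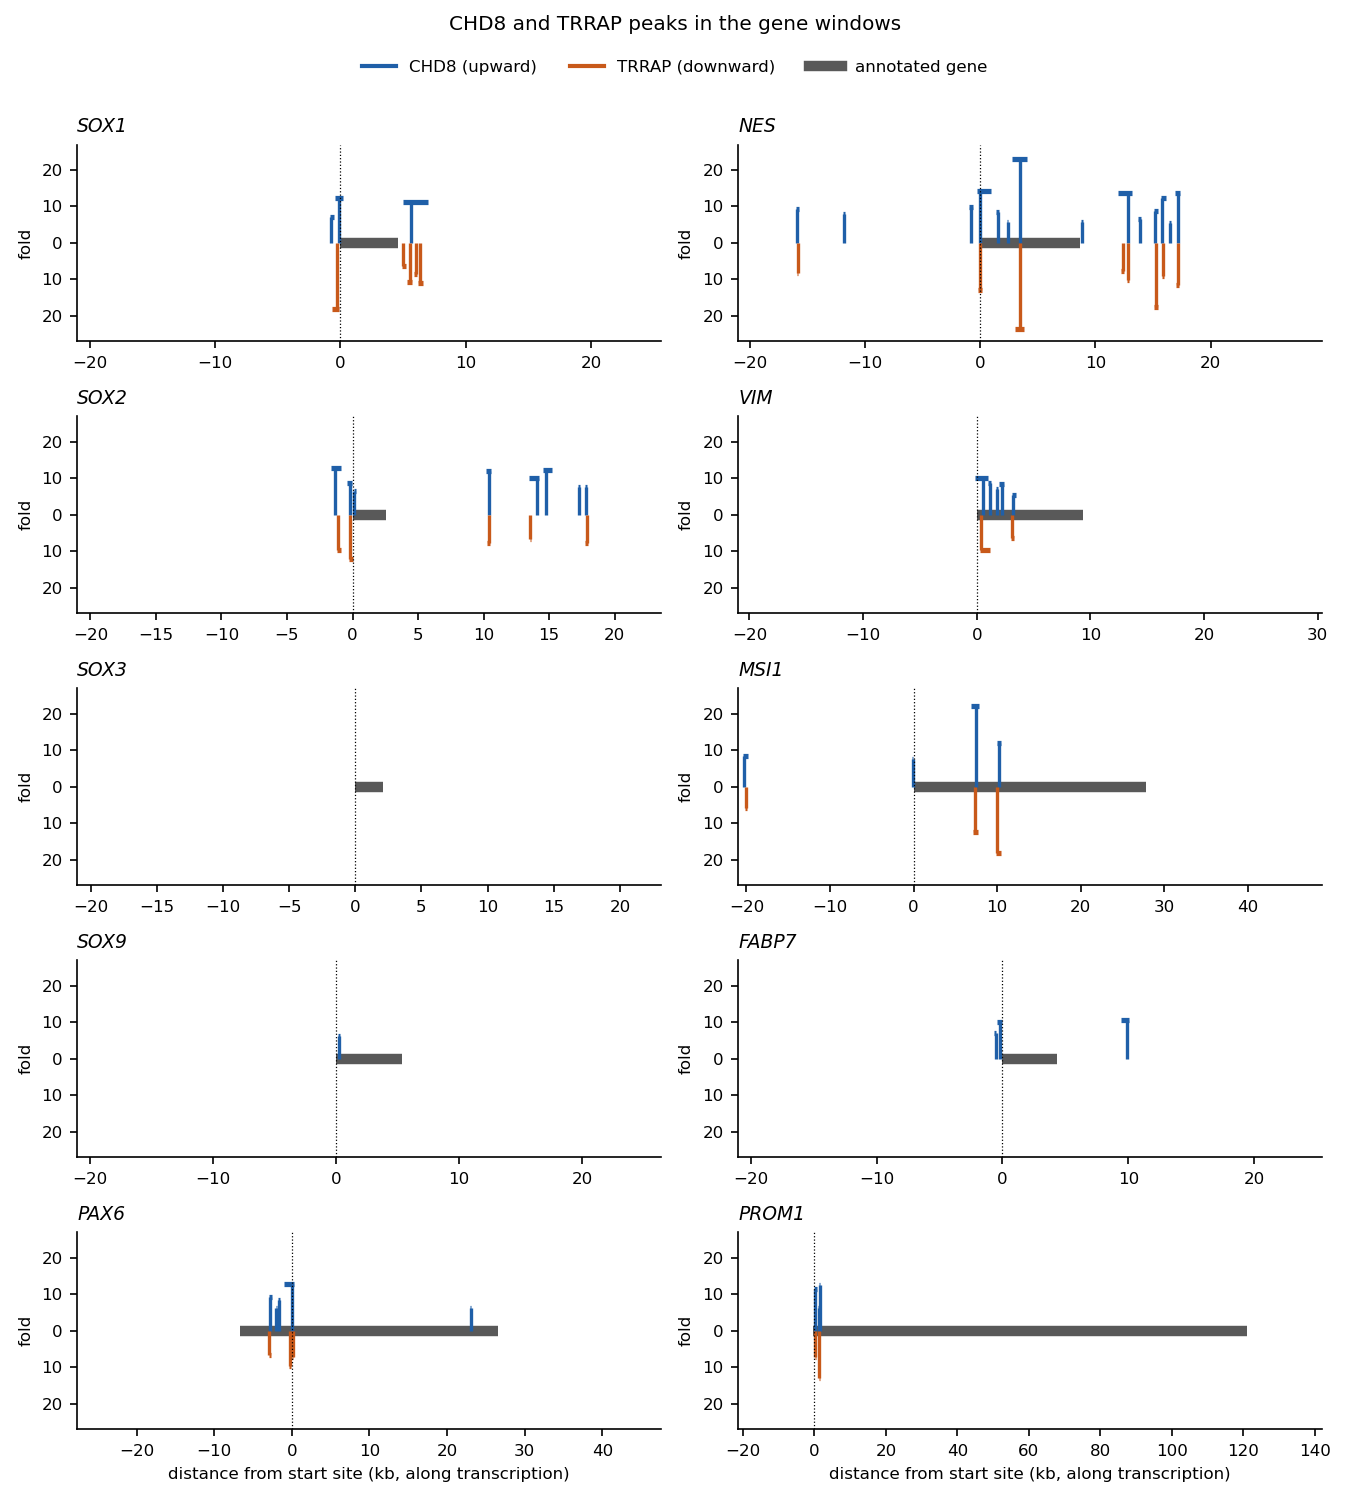
Peaks in the window of each gene. The x axis is the distance from the canonical start site in kb along the direction of transcription, with a scale of its own in each panel, and the y axis is the authors' fold, drawn upward for CHD8 and downward for TRRAP. Vertical lines stand at summits, the bars across their tips give the width of the peak, and grey bars are the annotated genes. The tallest lines of both proteins stand 3425 and 3481 bp into NES, and the SOX3 panel is empty.

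Among the SOXB1 genes, SOX1 (chromosome 13, 112067149 to 112071706, plus strand), which encodes one of the earliest neural transcription factors, was bound by both proteins at its promoter and past its end. Its promoter carried 2 CHD8 peaks, with folds of 7.10 and 12.4 and summits at −743 and −129 bp from the start site (negative values are upstream), and 1 TRRAP peak that bridged them. That TRRAP peak (chr13:112066470-112067062, fold 18.2, −log10 q 36.4, summit at −311 bp) was the strongest TRRAP promoter peak of the 10 genes and stood at 6.42% of its list counted from the strongest peak. Past the end of the gene, a single CHD8 peak of 2000 bp (chr13:112072155-112074154, fold 11.1) was the widest of the set. It overlapped 4 TRRAP peaks, with folds of 6.26, 10.6, 8.65 and 11.0 and summits 4986 to 6310 bp from the start site.

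SOX2 (chromosome 3, 181711925 to 181714436, plus strand), a transcription factor of both embryonic and neural stem cells, lies within the longer non-coding gene SOX2-OT and had 8 CHD8 peaks and 5 TRRAP peaks. Of the CHD8 peaks, 3 touched the promoter window. Their folds were 12.8, 8.87 and 6.66, with summits at −1334, −202 and 145 bp, so the strongest had its summit outside the window and the weakest lay in the 5′ UTR. TRRAP peaks with folds of 9.60 and 12.0 overlapped the upstream pair, and none overlapped the peak in the UTR. All 5 of these peaks also touched the promoter window of an unnamed non-coding gene. The strongest of SOX2's own TRRAP peaks was thus the one nearest its start site, whereas the strongest CHD8 peak was the one farther upstream.

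The other 5 CHD8 peaks of SOX2 lay past its end, between 10406 and 17786 bp from the start site. They formed 3 groups: a peak at 10.4 kb (fold 12.0), neighbours at 14.1 and 14.8 kb (folds 10.2 and 12.4), and a weaker pair at 17.3 and 17.8 kb (fold 7.54 each). TRRAP overlapped 3 of these 5, with folds of 7.69, 6.73 and 7.69. At 10.4 kb the summits of both proteins were 31 bp apart. The peak at 14.8 kb had no TRRAP peak although its CHD8 fold was the second highest in the window.

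SOX3 (chromosome X, 140502985 to 140505069, minus strand), the third SOXB1 gene, had 0 CHD8 peaks and 0 TRRAP peaks in its window of 42.1 kb. The nearest CHD8 summit was 65320 bp downstream of its start site (fold 7.10) and the nearest TRRAP summit 1301186 bp downstream (fold 7.21). Its promoter was CpG-rich, with a CpG ratio (observed over expected CpG within 500 bp of the start, both ways) of 0.78. This placed it in decile 7 of coding promoters, of which 79.2% had a CHD8 peak and 48.1% a TRRAP peak. Of 3455 coding windows within 10% of its length, 46.1% held no CHD8 peak and 58.6% no TRRAP peak. The read depth behind the lists is unknown, so no detection limit can be given for this gene.

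SOX9 (chromosome 17, 72121020 to 72126416, plus strand), a SOXE transcription factor that marks radial glia and astrocyte precursors, had 1 CHD8 peak and no TRRAP peak. The CHD8 peak (chr17:72121168-72121343) was among the weakest of its list, with a fold of 6.22, a −log10 q of 6.97 and a place at 93.8% of the list. Its summit lay 265 bp into the 5′ UTR, and the peak also overlapped the promoter window of the antisense gene SOX9-AS1, so its assignment between these start sites cannot be told apart. The nearest TRRAP summit was 84461 bp downstream of the SOX9 start site. SOX9 shares its CpG decile with SOX3 and VIM.

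PAX6 (chromosome 11, 31784779 to 31817961, minus strand), a homeodomain and paired-box factor that drives cortical progenitor fate, had 5 CHD8 peaks and 3 TRRAP peaks, and its annotation lists 66 distinct start sites. The strongest CHD8 peak (chr11:31811078-31812286, fold 12.8) was 1209 bp wide and had its summit 11 bp past the canonical start site. It contained 2 TRRAP peaks, with folds of 7.21 and 9.60 and summits at 93 and −268 bp. Further CHD8 peaks lay at −1629, −2009 and −2765 bp from this start site with folds of 8.43, 6.22 and 9.31, and TRRAP overlapped the last of them (fold 6.73). From the nearest other annotated PAX6 start site, their summits lay at −128, −200 and 889 bp. The fifth CHD8 peak, 23076 bp downstream (fold 6.22), was the only one of PAX6 more than 1 kb from every start site of the gene.

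**Figure D2:**
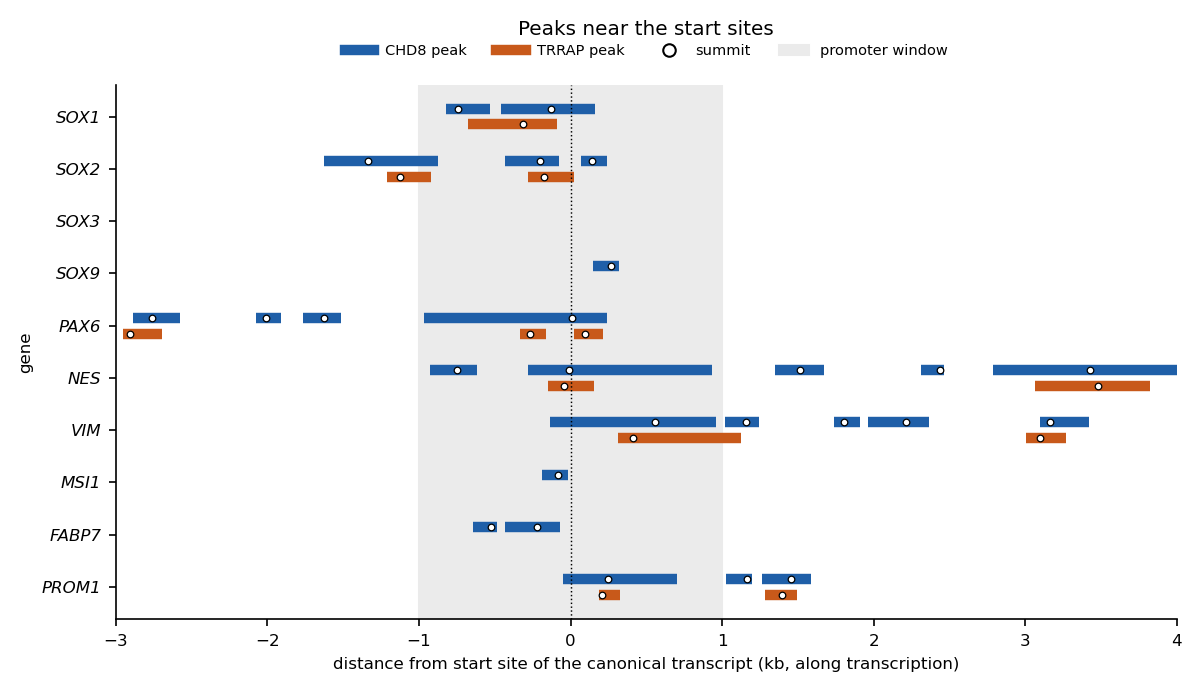
Peaks from 3 kb before to 4 kb after the canonical start site. Bars are peaks (CHD8 above, TRRAP below), white points are summits, the shaded band is the promoter window of 1 kb on each side, and the x axis is the distance in kb along transcription. At SOX1 the TRRAP peak spans the gap between 2 CHD8 peaks, and SOX9, MSI1 and FABP7 show CHD8 bars without a TRRAP bar in the shaded band.

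Of the intermediate filament genes, NES (chromosome 1, 156668763 to 156677407, minus strand), which encodes nestin, the filament protein most used to mark neural progenitors, had the most peaks of the set, 14 for CHD8 and 8 for TRRAP. The CHD8 peak in intron 2 (chr1:156673375-156674622, fold 23.0, −log10 q 55.3) stood at 5.42% of its list. The TRRAP peak inside it (chr1:156673585-156674345, fold 23.5, −log10 q 52.5) stood at 3.28%. Their summits were 56 bp apart. The second intron of NES is known as the site of an enhancer active in the developing nervous system. At the NES promoter the fold was 14.2 for CHD8 and 12.9 for TRRAP, with summits at −12 and −40 bp. Within the gene and its promoter these were next after intron 2 in both lists. A further CHD8 promoter peak at −750 bp (fold 9.75) had no TRRAP partner, and neither did weaker CHD8 peaks in intron 1 (fold 8.43, 1517 bp from the start site) and intron 2 (fold 5.77, 2438 bp).

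A cluster of 7 CHD8 and 5 TRRAP peaks lay past the end of NES, between 8845 and 17192 bp from its start site. Its strongest CHD8 peaks had a fold of 13.7 (chr1:156660047-156660514 and chr1:156664241-156665458). Its strongest TRRAP peak had a fold of 17.7 (chr1:156661941-156662269, at 7.10% of the list) and overlapped a CHD8 peak with a fold of 8.87. The remaining CHD8 folds there were 5.33, 12.4, 6.66 and 5.77, and the remaining TRRAP folds 11.5, 9.12, 10.1 and 7.69. Of the 7 CHD8 peaks, 4 overlapped the promoter window of the non-coding gene BCAN-AS2, and the coding gene BCAN also lies in this flank, so these peaks cannot be told apart as belonging to NES or to its neighbours. Upstream of NES, an overlapping pair with summits at −15852 and −15832 bp had folds of 9.31 (CHD8) and 8.17 (TRRAP), with summits 20 bp apart, and a lone CHD8 peak at −11811 bp (fold 7.98) lay at the start of a non-coding gene.

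VIM (chromosome 10, 17228241 to 17237593, plus strand), which encodes vimentin, the filament protein that precedes GFAP in glial development, had 5 CHD8 and 2 TRRAP peaks, all within the first introns and exons. The widest CHD8 peak (chr10:17228106-17229198, fold 10.2, summit 560 bp downstream in intron 1) and the TRRAP peak there (chr10:17228556-17229366, fold 9.60, summit 411 bp downstream) shared 643 bp. Both were promoter peaks, with summits at −68 bp (CHD8) and 137 bp (TRRAP) from the nearest annotated VIM start site of each. The next CHD8 peaks had folds of 8.87, 7.10 and 8.43 at 1156, 1806 and 2216 bp in order. These and the widest peak, 4 in all, touched the promoter window of the antisense gene VIM-AS1, so these start sites cannot be told apart. In intron 3, weak peaks of both proteins (folds 5.33 and 6.26) overlapped by 173 bp. VIM has 9 annotated start sites, and every CHD8 summit in its window was within 753 bp of one of them.

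MSI1 (chromosome 12, 120341330 to 120369164, minus strand), which encodes the RNA-binding protein Musashi-1, a regulator of mRNA translation in neural progenitors, was bound most strongly inside the gene. Its CHD8 promoter peak (chr12:120369181-120369355, fold 7.54, summit at −81 bp) had no TRRAP peak. In intron 6, CHD8 had a fold of 22.1 (chr12:120361386-120362314, at 6.04% of the list) and TRRAP a fold of 12.5. Deeper in the gene, the order within the lists was the other way: TRRAP had a fold of 18.2 (chr12:120358756-120359289, summit in intron 6, at 6.45% of its list) and CHD8 a fold of 12.0 with its summit in intron 7. The first of these CHD8 summits lay at −208 bp from another annotated MSI1 start site, and the second at 2605 bp from the nearest one. A further pair at the outer edge of the upstream flank had folds of 8.43 and 5.78, with summits just beyond 20 kb, and lay at the start of another annotated gene.

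FABP7 (chromosome 6, 122779716 to 122784074, plus strand), which encodes the brain fatty acid binding protein of radial glia, had 3 CHD8 peaks and no TRRAP peak. Its promoter peaks had folds of 7.10 and 10.2 and summits at −526 and −221 bp. The third, 9929 bp downstream (fold 10.6), overlapped the promoter of the neighbouring gene SMPDL3A. The nearest TRRAP summit was 2182276 bp from the FABP7 start site. With a CpG ratio of 0.25, FABP7 had the most CpG-poor promoter of the set. In its decile, the second lowest, 5.89% of coding promoters had a CHD8 peak and 2.20% a TRRAP peak.

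PROM1 (chromosome 4, 15963076 to 16084378, minus strand), which encodes the membrane protein prominin-1 (CD133), spans 121 kb. The summits of its 3 CHD8 and 2 TRRAP peaks nevertheless all lay within 1.46 kb of the start site. At the promoter the fold was 11.5 for CHD8 and 7.21 for TRRAP, with summits 250 and 211 bp downstream in intron 1. Stronger peaks of both lists followed in the same intron, with folds of 12.4 (chr4:16082438-16082759) and 12.9 (chr4:16082531-16082740). Their summits lay at 40 and −20 bp from another of the 18 annotated start sites of the gene. A weak CHD8 peak between them (fold 6.22) had no TRRAP partner.

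**Figure D3:**
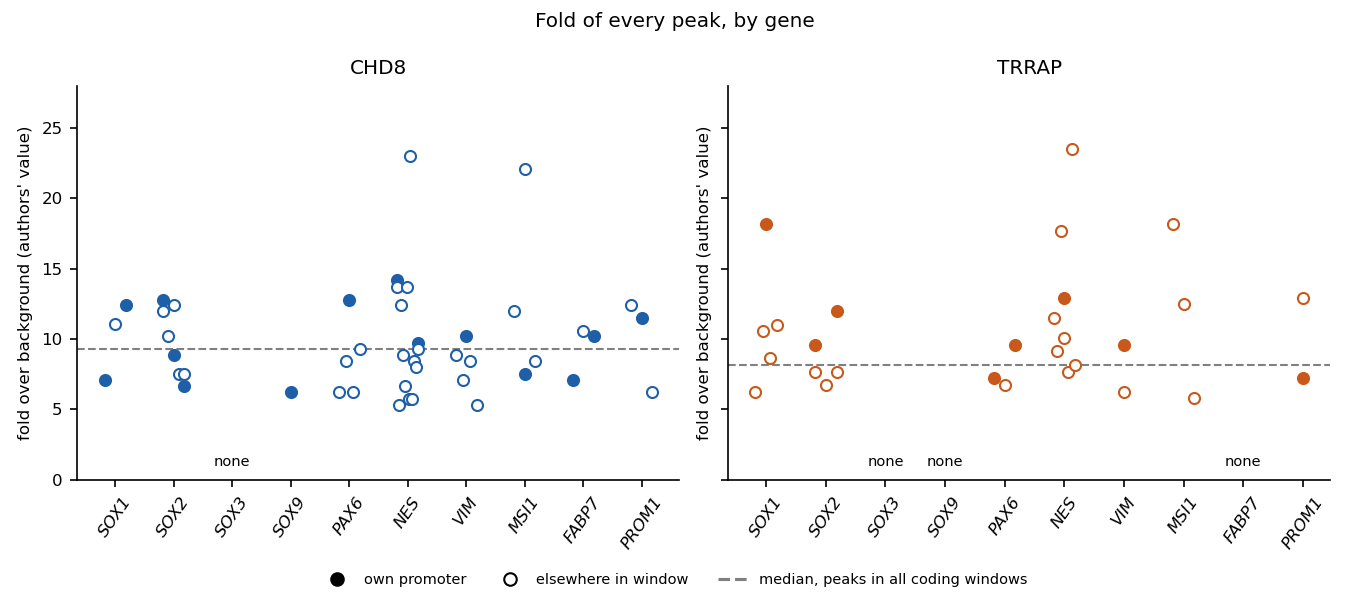
Fold of each peak by gene, for CHD8 (left) and TRRAP (right). Filled points are peaks at the gene's own promoter, open points are peaks elsewhere in the window, the y axis is the authors' fold over background, and the dashed line is the median of peaks in all coding windows. The highest points of both panels are open (NES and MSI1 for CHD8, NES for TRRAP), and no filled CHD8 point exceeds 14.2.

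Set beside all coding genes, the 10 genes had CHD8 promoter peaks in 9 cases (90.0%, Wilson 95% interval 59.6 to 98.2), where 55.9% of all coding genes had one. TRRAP promoter peaks were present in 6 (60.0%, 31.3 to 83.2), beside 34.9%, and both in the same 6 genes, beside 34.0%. The CHD8 interval lies above its background value and the TRRAP interval holds its own. These intervals cover counting error alone. Because CpG-rich promoters carried peaks more often, the share expected from the CpG decile of each gene was also computed. Its mean over the 10 genes was 69.6% for CHD8 and 43.5% for TRRAP. Both values lie inside the intervals of the observed shares, so the CHD8 share was not set apart from genes of like CpG ratio. In the gene windows, CHD8 was present at 9 genes, beside 73.3% of all coding genes, and TRRAP at 7 (70.0%, 39.7 to 89.2), beside 55.5%. Both of these intervals hold the background.

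**Figure D4:**
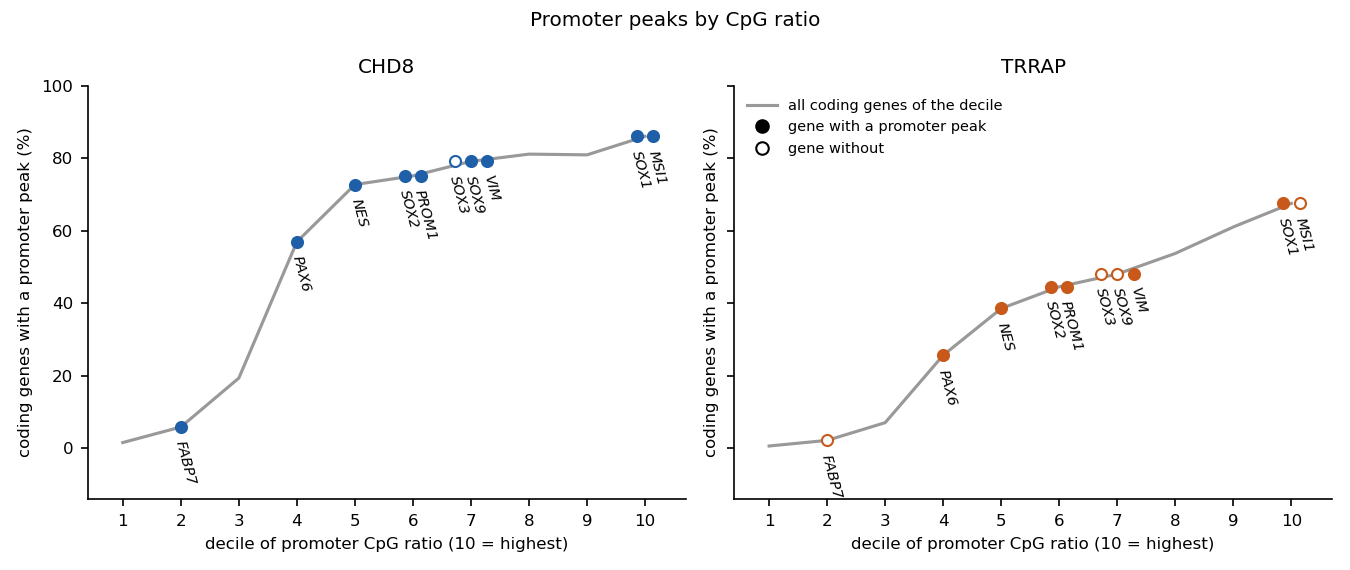
Promoter peaks and CpG ratio. The grey line gives the share of all coding genes with a CHD8 (left) or TRRAP (right) promoter peak in each decile of promoter CpG ratio, and points set the 10 genes at their decile, filled where the gene has the peak (points of 1 decile are spread sideways). SOX3 is the open point in decile 7 of the CHD8 panel, where 79.2% of genes had a peak, and FABP7 the filled point in decile 2, where 5.89% had one.

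The number of peaks per window varied more between these genes than presence did. NES had 14 CHD8 peaks, a number reached by 20 of 20033 coding genes (0.0998%), and of 4365 coding windows within 10% of its length it was the 1 that reached it. Its 8 TRRAP peaks were reached by 21 of those windows. SOX2 had 8 CHD8 and 5 TRRAP peaks, reached by 2.37% and 3.46% of 3675 windows of like length. SOX1 had a count of CHD8 peaks reached by 25.4% of like windows, but a count of TRRAP peaks reached by 3.60%. The other genes were at or below the 95th percentile of windows of their length for both proteins. Whether neighbouring peaks in a window are separate binding sites was not tested.

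**Figure D5:**
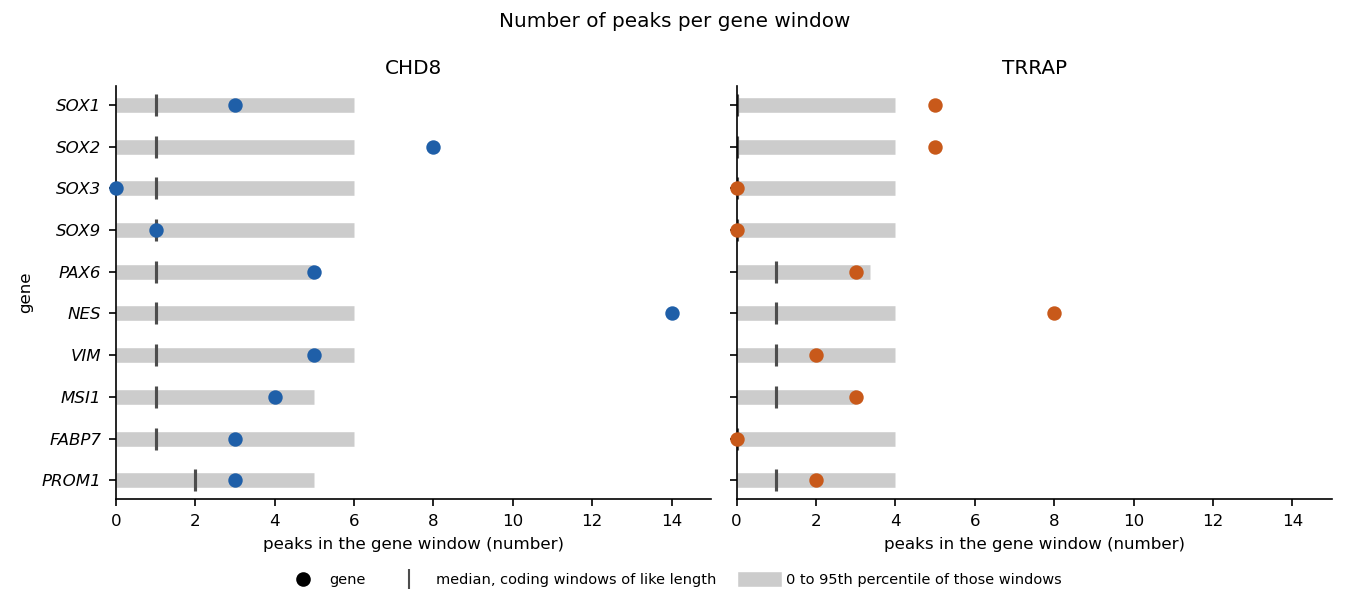
Number of CHD8 (left) and TRRAP (right) peaks in each gene window. Coloured points are the genes, ticks the median and grey bars the range from 0 to the 95th percentile of coding windows within 10% of the same length. For CHD8, NES (14 peaks) and SOX2 (8 peaks) lie past the grey bars. For TRRAP, NES (8 peaks), SOX1 and SOX2 (5 peaks each) do.

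By place, the 46 CHD8 peaks comprised 14 at the genes' own promoters, 15 elsewhere in the gene, 14 in the downstream flank and 3 in the upstream flank. The 28 TRRAP peaks comprised 8, 6, 12 and 2. Of the CHD8 peaks, 31 (67.4%, 53.0 to 79.1) overlapped no canonical coding promoter, beside 35.8% of the peaks in all coding windows, and for TRRAP 20 did not (71.4%, 52.9 to 84.7), beside 33.0%. Peaks of 1 gene are not independent, so the intervals are too narrow. These shares moved with the choice of start sites and with NES, both examined after the values were seen. When any annotated start site of a coding gene counted, the CHD8 share was 45.7% beside 26.0%. Without NES it was then 28.1%, close to the background. Without NES it was 59.4% beside 35.8% with canonical coding start sites, and 46.9% beside 30.4% with the canonical start sites of all annotated genes. With any annotated coding start site, the TRRAP share was 57.1% beside 23.5%, and 45.0% without NES. Without NES it was 65.0% beside 33.0% and 60.0% beside 27.5% under the other definitions.

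With peaks of all places pooled, the median fold lay slightly below that of all coding windows for CHD8 and above it for TRRAP. For CHD8 the direction differed by place. The median CHD8 fold was 8.87 (5.33 to 23.0), beside 9.31 over the 19605 peaks of all coding windows, and 2 of 46 peaks (4.35%) were in the strongest 10% of the list, beside 10.2% of all coding-window peaks. The median TRRAP fold was 9.60 (5.78 to 23.5), beside 8.17 over 11750 peaks, and 4 of 28 (14.3%) were in the strongest 10%, beside 8.06%. Own promoter peaks had a median CHD8 fold of 9.97, beside 10.6 at all coding promoters, and a median TRRAP fold of 9.60 beside 8.17. Neighbouring fold values differed by steps of 0.442 for CHD8 and 0.478 for TRRAP. The TRRAP medians thus differed by about 3 steps and the CHD8 medians by about 1. The interval of the median over all peaks of these genes was 7.54 to 10.6 for CHD8 and 7.69 to 11.5 for TRRAP. For own promoter peaks it was 7.1 to 12.8 for CHD8 (14 peaks) and 7.21 to 18.2 for TRRAP (8 peaks). Outside coding promoters, the median CHD8 fold was 8.43 with an interval of 7.54 to 11.1, beside 7.98 over all such peaks. For TRRAP it was 8.88 with an interval of 7.69 to 11.5, beside 8.17. Of the CHD8 peaks there, 2 of 31 (6.45%) were in the strongest 10%, beside 2.39%. At own promoters 0 of 14 were, beside 14.5% at all coding promoters. Each interval holds its background median, so no median was set apart from its background.

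All 28 TRRAP peaks overlapped a CHD8 peak by at least 1 bp (100.0%, 87.9 to 100.0), beside 89.4% in all coding windows, inside the interval. In the other direction, 25 of 46 CHD8 peaks overlapped a TRRAP peak (54.3%, 40.2 to 67.8), beside 47.4%. Outside coding promoters, 17 of 31 CHD8 peaks did (54.8%, 37.8 to 70.8), beside 40.7%. Both backgrounds lie inside the intervals. The 30 overlapping pairs, in 7 genes, had summits a median of 110 bp apart (14 to 745 bp), beside 90 bp over all pairs in coding windows. The closest summits were at NES, 14 bp apart at 12.9 kb past the start site, and the farthest at VIM.

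The 201 bp around the 46 CHD8 summits had a median GC content of 62.4% (41.8 to 84.1), beside 65.7% over all coding windows. By place, the median GC content was 65.7% beside 68.7% at coding promoters, and 60.2% beside 58.2% outside them. Outside coding promoters the median CpG ratio was 0.31 at these genes and 0.42 over all such peaks. Exact words were counted on both strands. The SOX word (AACAATG or AACAAAG) was present in 6 of 46 peaks (13.0%), beside 6.50% of peaks in all coding windows, and in 5 of the 31 outside promoters (16.1%), beside 12.2%. Those 6 peaks were at PAX6, VIM, PROM1 and MSI1 (1 each) and at NES (2). The E-box of neural bHLH factors (CAGCTG) was present in 10 peaks (21.7%, beside 15.1%), and 3 copies stood around the NES summit at 12.9 kb past the start site. By place, its share was 25.8% beside 20.7% outside coding promoters, and 13.3% beside 12.1% at them.

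MYC and E2F words, those of factors known to recruit TRRAP, were infrequent both at these genes and over all coding windows. The MYC E-box (CACGTG) was present in 1 of 46 peaks (2.17%, beside 5.83%), at SOX2 14.8 kb past its start site, where TRRAP was not found. The E2F word (TTCCCGCC) was present in 1 (2.17%, beside 3.19%), at the NES promoter. The ETS word (CCGGAAGT) was present in 1 (beside 4.11%), the POU octamer (ATGCAAAT) in 1 (beside 0.760%), and the RBPJ word (CGTGGGAA) in 0 (beside 0.612%). These backgrounds pool peaks at and outside coding promoters. The 1 ETS peak lay outside them, where 1.12% of all peaks held the word, and the 1 E2F peak at a promoter, where 3.88% did. The SP word (GGGGCGGGG) was present in 7 (15.2%, beside 13.5%) and the NFY word (CCAAT) in 8 (17.4%, beside 17.8%). The FABP7 promoter peak held 3 copies of the NFY word, seen as capitals in its sequence, more than any other of the 46 peaks. No word is contained in another, although some can share bases, such as E2F with SP and the MYC E-box with RBPJ. A match describes letters and not a bound site, and no count of matching peaks was tested.

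Related genes fixed as lists were compared by counts. Of 31 other neural progenitor genes, 26 had a CHD8 promoter peak (83.9%, beside 55.9% of all coding genes) and 16 a TRRAP promoter peak (51.6%, beside 34.9%). The highest CHD8 folds among them were at BMI1 (24.8), a Polycomb protein of stem cell self-renewal, NOTCH1 (23.0), the Notch receptor, and HES1 (17.3), a Notch target that represses neuronal differentiation. Those without one included TNC, HOPX and OTX2, which had no peak of either list in their windows. NR2E1, named after its values were seen, had 1 window peak of each protein and none at its promoter. The share expected from CpG deciles was not computed for this list or for the paralogs. Genes of the progenitor list range from decile 3 (HOPX) to decile 10 (such as BMI1 and NOTCH1). In these deciles 19.4% and 86.1% of coding promoters had a CHD8 peak, and 7.09% and 67.6% a TRRAP peak. Among 36 paralogs of the 10 genes, 12 had a CHD8 promoter peak (33.3%) and 9 a TRRAP promoter peak (25.0%). These were led by LMNB1, a nuclear lamin (CHD8 fold 23.9), followed at a distance by SOX11 with 12.0 and by SOX5 and SOX8 with 11.5 each. Of the paralog families, 7 of 13 SOX genes but 1 of 8 PAX genes, PAX5, had a CHD8 promoter peak. Among the intermediate filament genes it was 2 of 8 (LMNB1 and SYNM), among the fatty acid binding genes 1 of 5 (FABP3), and PROM2 had none. SOX14, SOX30, PAX1, PAX2, PAX3, PAX4, PAX7, PRPH, NEFH, FABP1, FABP4 and PROM2 had no peak of either list in their windows. MSI2, the listed paralog of MSI1, had 15 CHD8 and 8 TRRAP peaks in its window. These counts were not set beside windows of like length, so they cannot be compared with those of the 10 genes. The progenitor list and the paralogs share SOX4, SOX11, SOX21 and MSI2.

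Markers of other cell types were counted in the same way, beside the 55.9% of all coding genes with a CHD8 promoter peak and the 34.9% with a TRRAP promoter peak. CHD8 promoter peaks were present at 2 of 6 pluripotency genes (LIN28A and DPPA4, both also with TRRAP) and not at POU5F1 or NANOG. They were present at 3 of 7 neuronal genes (TUBB3, MAP2 and SNAP25, each also with TRRAP), at 0 of 4 astrocyte genes and 0 of 6 oligodendrocyte lineage genes. They were present at 2 of 7 mesoderm and endoderm genes (MESP1 and MIXL1, without TRRAP) and at 0 of 4 blood genes. SNAP25, a synaptic protein of neurons, had a CHD8 promoter fold of 38.0, above every peak of the 10 stem cell genes, and MAP2, a neuronal microtubule protein, had a TRRAP promoter fold of 27.3. Which of these genes the cells express was not measured in these lists.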

How the data were processed

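Per the labels' protocols, chromatin of double-crosslinked cells was sheared in 14 sonication cycles and precipitated with antibodies against CHD8, TRRAP or IgG. The submitters' processing notes name HISAT2, MACS2 2.1.1.20160309 and the GRCh38 build. The control and further settings are not given in the sources used here. Each deposited list holds 1 library's peaks, with the authors' linear fold ratio, the authors' −log10 p and −log10 q, and the deposited score, which is 10 times −log10 q. Deposited file titles give a false discovery rate of 0.0001 for CHD8, and of 0.001 for TRRAP. The authors also give each summit. The read depth is unknown.

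Peaks (23393 for CHD8, 14735 for TRRAP) were placed on GENCODE release 44 by an overlap of 1 bp with windows of 20 kb around the gene record and of 1 kb around the start of the canonical transcript. In total, 0 peaks ran past a chromosome end. Ranks follow −log10 q, then fold, width and position. CpG ratios used 500 bp either way from the start, and words 100 bp on each side of the summit. Software: matplotlib 3.10.9 drew the figures, pysam 0.24.0 read the genome, and pandas 2.3.3 with numpy 2.4.6 and scipy 1.17.1 ran under Python 3.11.15. The overlap rules were tested on simulated data and placed 2000 peaks with 0 errors. The genes and lists were chosen with earlier results of these data known. All 10 genes are described with every peak. From the lists, the 3 highest CHD8 promoter folds and genes without a peak are named (1 gene and 1 sequence under these rules are not reported here), except that marker genes with a promoter peak are also named. With 1 library per antibody no test was made. Intervals of shares are Wilson 95% intervals, and those of medians are 95% binomial intervals taken from the ordered values. Ranges in brackets directly after a median run from minimum to maximum.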

Additional observations from a re-analysis of the deposited data

How the results depend on the processing

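The 11 counts, shares and medians over the 10 genes were recomputed under 12 alternatives: promoter windows of 500 and 2500 bp, start sites of all transcripts, flanks of 5, 10 and 50 kb, the better-ranked part of each list, above its median rank, overlap of 50% of the shorter peak, centres within 200 bp, placement by summit, TRRAP peaks with q of at most 0.0001, and removal of peaks at another coding promoter. Of 132 values, 128 stayed within 1.5 times the count or within the interval of the share or median. Many of these could not move, so the 128 is no measure of stability. The overlap rules enter the overlap shares alone, and the promoter and start-site settings the promoter counts alone. Flank settings leave promoter counts unchanged, and the TRRAP q cut leaves values of CHD8 alone unchanged. Keeping the stronger-ranked peaks of each list left 20 CHD8 and 17 TRRAP peaks and gave a median CHD8 fold of 12.4, which follows from leaving out the weaker peaks. With centres within 200 bp, 67.9% of TRRAP peaks had a CHD8 peak, and the cause was not tested. With all start sites, 7 genes had a TRRAP promoter peak, MSI1 being added. No paired analysis was possible because no result comes from a test and each antibody had 1 library. The unknown read depth limits every statement on a missing peak.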
